A study of Homo sapiens with 6 samples.

Results

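Mitochondrial ribosomal protein genes were taken as the rows of the deposited SaOS-2 table whose symbol begins with MRPL or MRPS followed by a number and, where present, a letter A to C. The rule found 76 of the 23228 rows, 47 with a large subunit symbol (MRPL) and 29 with a small subunit symbol (MRPS). It used the names alone and no measured value. Of the 76 genes, 75 had a mean normalized count of at least 10 over the 6 libraries and were tested. MRPS24 was not.

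RNA had been sequenced from SaOS-2 cells, a human osteosarcoma line that lacks RB and p53, carrying a tetracycline-inducible p21 vector in both groups. The 3 p21 OFF libraries came from untreated cells and the 3 p21 ON libraries from cells given 1 μg/ml doxycycline for 24 h. The series was made to find genes that respond to p21, a CDK inhibitor that stops the cell cycle, and the study used it to ask how cell cycle genes behave in a cancer line without RB. Cells that received doxycycline but lacked the vector were not analysed here, and what doxycycline does to these genes and what p21 does cannot be told apart.

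The mitochondrial ribosome translates the few mRNAs encoded by mitochondrial DNA, which specify core subunits of the respiratory chain. Its RNAs come from the mitochondrial genome, but every one of its proteins is encoded in the nucleus, translated in the cytosol and imported. The small subunit holds the mRNA and reads its codons. The large subunit joins the amino acids and passes the chain out through an exit tunnel. Tetracyclines such as doxycycline bind ribosomes of bacterial type and can inhibit mitochondrial translation. The inducer of this vector is therefore of a drug class that can act on the particle these genes encode. RNA levels do not measure mitochondrial translation, and such an action in these cells was not tested.

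Promoter sequences of 4 members are shown because the mitochondrial ribosomal protein genes share no position in the genome and lie on 21 chromosomes, while their promoters share short motifs. MRPL27 and MRPL20 fell most among the 9 members called in all 18 alternatives that kept an adjusted p under 0.05, MRPS12 encodes the decoding centre protein of the small subunit, and MRPL17 had the highest log2 fold change of all members. Each sequence is the 150 bases before the transcription start, on the coding strand, from RefSeq (GRCh38.p14). Capitals mark the ETS motif (CCGGAAG), the NRF1 motif (GCATGCGC) or the CCAAT box (CCAAT), each searched on both strands. MRPL27 lies at chr17:50373185-50373334 (minus strand), MRPL20 at chr1:1407294-1407443 (minus strand), MRPS12 at chr19:38930794-38930943 (plus strand) and MRPL17 at chr11:6683341-6683490 (minus strand).
MRPL27: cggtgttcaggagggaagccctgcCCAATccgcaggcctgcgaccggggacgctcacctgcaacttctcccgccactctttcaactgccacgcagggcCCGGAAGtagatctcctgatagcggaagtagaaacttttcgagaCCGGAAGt
MRPL20: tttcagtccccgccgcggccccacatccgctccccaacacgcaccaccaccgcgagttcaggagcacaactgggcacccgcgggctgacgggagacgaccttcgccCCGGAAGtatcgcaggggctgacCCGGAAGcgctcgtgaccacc
MRPS12: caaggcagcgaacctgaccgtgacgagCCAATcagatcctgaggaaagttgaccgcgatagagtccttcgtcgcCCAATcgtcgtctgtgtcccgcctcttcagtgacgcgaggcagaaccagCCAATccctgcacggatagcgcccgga
MRPL17: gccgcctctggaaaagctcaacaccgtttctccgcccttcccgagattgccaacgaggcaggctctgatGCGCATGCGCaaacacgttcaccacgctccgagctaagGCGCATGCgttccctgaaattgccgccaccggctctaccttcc

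Promoter windows of 250 bases before to 50 bases after the start were found for 67 of the 76 genes, and the same windows of 9267 tested genes served as the background. An ETS motif, the binding sequence of GABP and related factors, lay in 28 of the 67 windows (41.8%) and in 18.7% of the windows of tested genes. A YY1 motif (AAGATGGC) lay in 20 of 67 (29.9%) and in 5.55% of tested genes. Large and small subunit genes carried both at similar shares, 16 of 40 large and 12 of 27 small subunit windows for ETS and 12 of 40 and 8 of 27 for YY1. MRPL27 and MRPL20 each held an ETS motif more than once in the stretch printed above, and the YY1 motif of MRPL20 lay outside that stretch. The NRF1 motif lay in 6 of 67 windows (8.96%, against 5.60% of tested genes), and the MRPL17 sequence shows it at 2 places, overlapping on both strands at the first.

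The CCAAT box was found in 20 of 67 windows (29.9%, against 36.8% of tested genes), and the MRPS12 sequence holds 3. The MRPS12 window also held an ETS and a YY1 motif, which do not lie in full within the printed stretch. The E-box CACGTG lay in 6 windows (8.96%, against 10.2%), those of MRPL22, MRPL36, MRPL37, MRPL45, MRPL49 and MRPS18C, none of which was called lower. These genes were named after their values were seen. E2F motifs (TTTCGCGC or TTTGGCGC) lay in 3 windows (4.48%, against 1.96%), and the CHR motif TTTGAA of G2/M genes in 3 (4.48%, against 9.66%), which were those of MRPS18A, MRPS18B and MRPS18C. Of the members called lower below, 33 had a window and 16 of these held an ETS motif. The 33 windows of members tested and not called held it in 12. For YY1 the numbers were 12 and 7, for NRF1 2 and 4, and for the CCAAT box 10 and 10. For E2F and for CHR they were 2 and 1, and for the E-box 0 and 6. Whether any motif differs between called and uncalled members was not tested. A motif is a match of letters in a window and not a measured binding site.

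After p21 induction the mitochondrial ribosomal protein genes were lower as a group by a small amount. With limma on log2(normalized count + 1), over all 13255 genes tested and with a Benjamini-Hochberg adjusted p under 0.05, 38 of the 75 members were called lower in p21 ON cells and 0 were called higher. In the same comparison 12.7% of all genes were called lower and 10.5% higher. At an unadjusted p under 0.05 from limma, 53 members were lower and 0 higher, against 2527 and 2354 of all 13255 genes. The edgeR quasi-likelihood test on the recovered reads also called 38 members lower and 0 higher, against 1647 and 1401 of all genes. At an adjusted p under 0.01, 17 members were lower, against 6.65% of all genes. The median log2 fold change of the members was -0.25, which is 0.839 of the p21 OFF level, and the central 50% of members lay between -0.29 and -0.17. The median over all genes was 0.01.

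The change was nearly uniform in direction. Of 75 members, 73 had a log2 fold change below 0, against 48.9% of all genes, and 48 lay below -0.2, against 16.8%. In 49 members every p21 ON library was below every p21 OFF library (21.3% of all genes), and in 0 members every p21 ON library was above (19.1% of all genes). The members ranged from -0.55 for MRPL27 to 0.02 for MRPL17. Both subunits fell, 25 of 47 large subunit genes (median -0.26) and 13 of 28 tested small subunit genes (median -0.24). The p-values measure the spread between 3 libraries a group. The paper calls its replicates biological, but the labels do not say whether the libraries came from separate cultures. Part of that spread may therefore be technical.

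**Figure D1:**
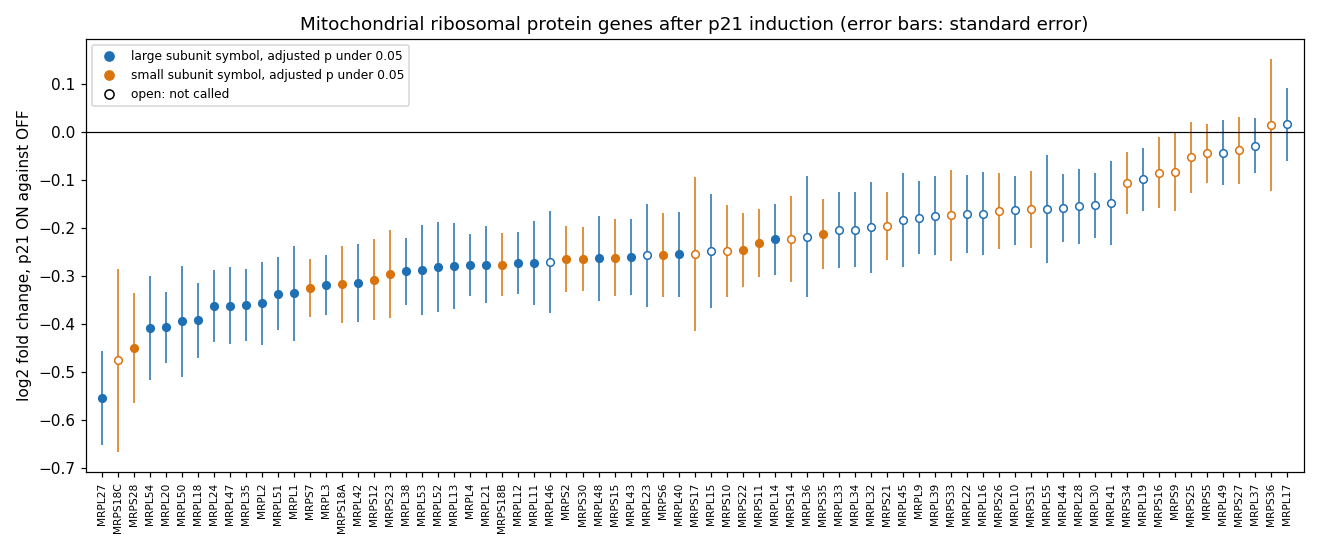
Log2 fold change of p21 ON against p21 OFF (y axis) with its standard error for each of the 75 tested mitochondrial ribosomal protein genes (x axis, ordered by value), blue for large and orange for small subunit symbols, filled where the adjusted p was under 0.05. Values run from -0.55 to 0.02, 73 points lie below 0 and the filled points of both colours are mixed along the order.

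SaOS-2 RNA is a bulk sample, so fewer cells and less RNA per cell cannot be told apart, and each value is relative to the other genes of its library. CDKN1A, the gene of p21, stood at 1266 ± 84.5 normalized counts (SD, n = 3) in p21 OFF and 43691 ± 3138 (SD, n = 3) in p21 ON cells, so the libraries matched their labels. Depth ran from 12795490 to 21975045 reads on genes, the lowest in p21 OFF replicate 1. Of 9 osteoblast markers 6 passed the filter on low values, among them RUNX2, SP7 and ALPL, while COL1A2, SPP1 and BGLAP did not. Of the 6 that passed, 1 was called lower in p21 ON and 0 higher (16.7% lower, against 12.7% of all genes). Of the markers of other cell types, 0 of 5 haematopoietic, 2 of 4 endothelial and 3 of 5 epithelial genes passed it. VWF, an endothelial marker, was called higher in p21 ON (0.50, limma adjusted p = 0.0333, with 51.5 to 55.5 normalized counts in p21 OFF and 62.1 to 90.3 in p21 ON), and the epithelial marker EPCAM stood at 292 to 374 over all libraries. From the same lists CDH5, KDR, CDH1 and KRT20 did not pass the filter, at no more than 6.09 normalized counts, while PECAM1, KRT5 and CLDN4 did. The part in the results of cells that express VWF, EPCAM or the other markers was not tested. The members had 29 to 6261 reads in a library, leaving out MRPS24, and 72 of them had at least 100 in each.

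Libraries differed in the level of the members within a group as well. Relative to the mean of all 6 libraries on the log2 scale, the median member stood at 0.24, 0.08 and 0.05 in p21 OFF replicates 1, 2 and 3 and at -0.17, -0.07 and -0.10 in the p21 ON replicates. The groups did not overlap, but p21 OFF replicate 1 was the highest library for 66 of the 75 tested members and p21 ON replicate 1 the lowest for 44. Large and small subunit genes moved together from library to library. As a share of all reads on genes, the 76 members took 0.441, 0.397 and 0.390% in p21 OFF and 0.352, 0.376 and 0.365% in p21 ON libraries.

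A trend with transcript length moved with the same libraries. Over 12563 genes, expression changed with each doubling of exonic length by -0.11, -0.02 and 0.00 on the log2 scale in the p21 OFF replicates and by 0.07, 0.03 and 0.03 in the p21 ON replicates, relative to the mean of the libraries. Short genes were therefore high in p21 OFF replicate 1 and low in p21 ON replicate 1. Mitochondrial ribosomal protein genes are short, with a median exonic length of 1260 bases in the canonical transcript against 3407 bases over all genes tested. The rank correlation of log2 fold change with length, given as a description across genes, was 0.36 over all genes and 0.30 over the members.

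With the length trend taken out of each library, 17 members were called lower and 0 higher, against 13.0% of all genes lower, and 15 of the 17 were among the 38 called before. The median fell in size to -0.13, and 65 of 75 members remained below 0. In that fit 13 large subunit genes were called (median -0.11) and 4 small subunit genes (median -0.13). The calls of MRPL1, MRPL4, MRPL11, MRPL12, MRPL24, MRPL40, MRPL48, MRPL54, MRPS2, MRPS12, MRPS18A, MRPS28 and MRPS30, described below, were lost in it (-0.26 to -0.06). Without p21 OFF replicate 1, 26 members were called lower (12.2% of all genes) with a median of -0.18, and with both changes 18 members with a median of -0.09 (12.1% of all genes), an alternative chosen after seeing the data. Without p21 ON replicate 1 there were 17 (6.72% of all genes), and without p21 ON replicate 3 there were 20 (8.13% of all genes). Scaling by library size alone gave 24 (9.01% of all genes, with 1194 genes lower and 2034 higher in place of 1681 and 1393). The part of length and of single libraries in the lower level of these genes was not tested.

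**Figure D2:**
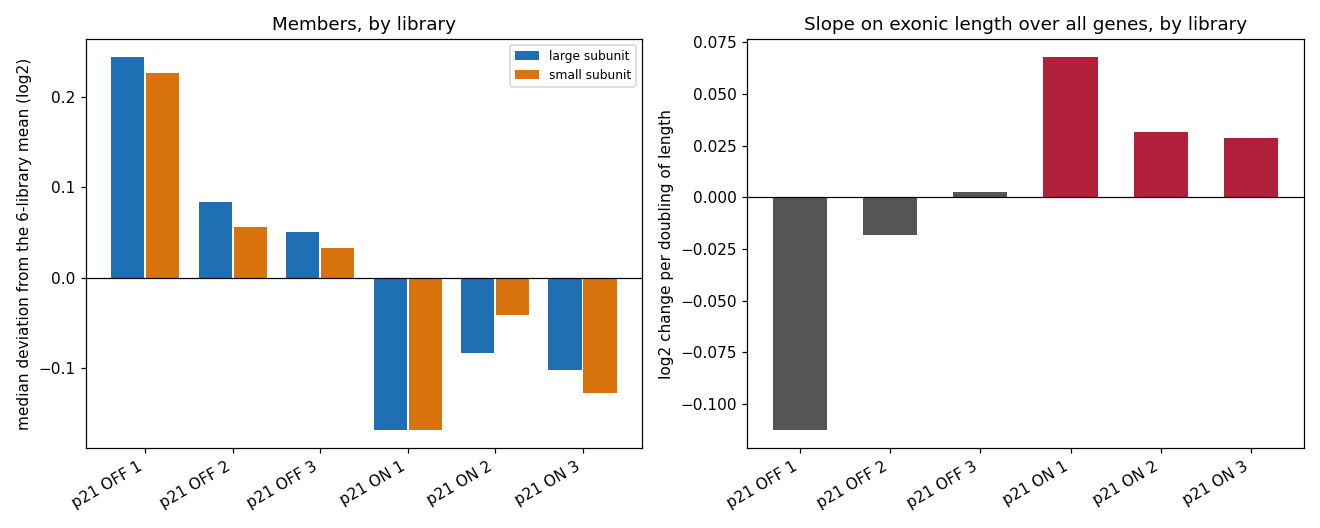
Left, the median deviation of large (blue) and small (orange) subunit genes from their 6-library mean on the log2 scale in each library; right, the log2 change per doubling of exonic length over 12563 genes in each library, grey for p21 OFF and red for p21 ON. p21 OFF replicate 1 has the highest members (0.24) and the steepest fall with length (-0.11), and p21 ON replicate 1 the lowest members (-0.17) and the steepest rise (0.07).

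**Figure D3:**
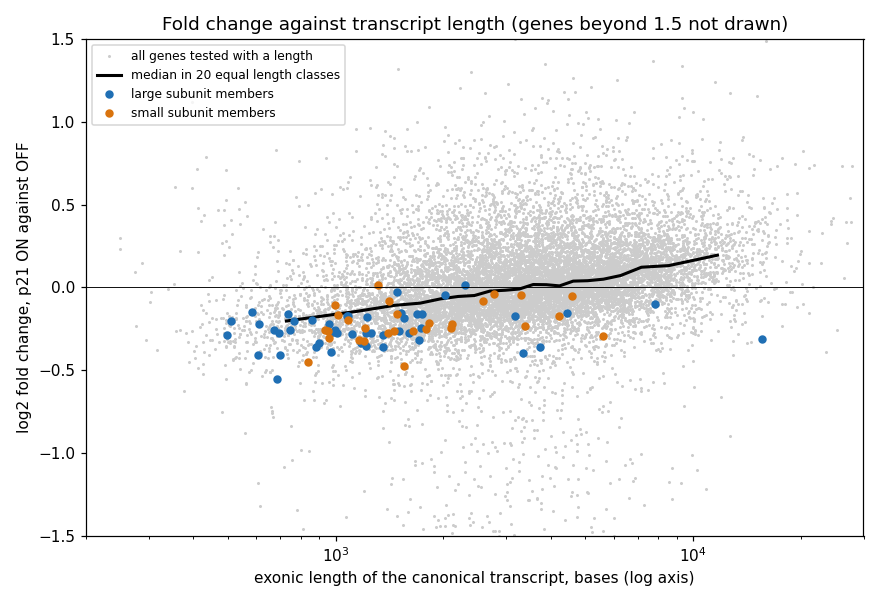
Log2 fold change of p21 ON against OFF (y axis) against exonic length in bases (x axis, log scale) for all genes with a length (grey, those beyond 1.5 not drawn), large (blue) and small (orange) subunit genes, with the median in 20 length classes as a line. The line rises with length, many members lie at the short end, and 65 of the 75 were still below 0 after the trend was removed from each library.

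Around the peptidyl transferase centre and the start of the exit tunnel, where amino acids are joined, 4 of 5 genes fell. These were MRPL2, MRPL3, MRPL4 and MRPL27, and the median of the 5 was -0.32. Of the 5, 3 were called lower with the length trend removed. For comparison with this and the sites below, 38 of 75 members and 12.7% of all genes were called lower in the main fit. Whether any site differs from all members was not tested. MRPL27, whose protein reaches into the peptidyl transferase centre, fell most of all 75 members. In GRCh37 it spans chr17:48445218-48450568 on the minus strand. Its normalized counts were 332.8, 289.8 and 293.4 in p21 OFF and 194.4, 227.9 and 201.5 in p21 ON libraries, so the groups did not overlap (p = 0.1 in an exact two-sided permutation test, which 3 against 3 libraries cannot go below). Its difference on the log2 scale was -0.55 (limma, standard error 0.10, Benjamini-Hochberg adjusted p = 0.00063). With the length trend removed it was -0.34 (limma, adjusted p = 0.00714).

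MRPL2 and MRPL3, close to the same centre, had log2 fold changes of -0.36 and -0.32. MRPL2 had 493.6, 489.8 and 419.8 normalized counts in p21 OFF and 355.1, 350.9 and 387.7 in p21 ON libraries (limma, adjusted p = 0.00685). MRPL3 had 1830, 1700 and 1764 against 1413, 1473 and 1358 (limma, adjusted p = 0.0015). Neither gene overlapped between the groups, and both were called in all 18 alternatives that kept the 0.05 threshold.

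The stalk of the large subunit, which receives the translation factors, is built from MRPL10, MRPL11 and MRPL12. Of the 3, MRPL11 and MRPL12 fell, so 2 were called lower, and 0 were with the length trend removed. MRPL11 (-0.27, limma adjusted p = 0.0314) was not called when p21 OFF replicate 1 was left out, nor when p21 ON replicate 1 or 3 was (-0.19, -0.21 and -0.29). MRPL12 stood at 2863, 2531 and 2524 normalized counts in p21 OFF and 2087, 2222 and 2233 in p21 ON, without overlap. Its log2 fold change was -0.27 (limma, standard error 0.06 and adjusted p = 0.00591). This call was lost without p21 ON replicate 1 (-0.24, adjusted p = 0.0511) and with the length trend removed (-0.11, adjusted p = 0.0982). MRPL1, of the opposite stalk, had a log2 fold change of -0.34 (limma, adjusted p = 0.0199), a call lost without the second p21 OFF library and without p21 ON replicates 2 and 3 (-0.33, -0.33 and -0.28).

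In the central protuberance, where the large subunit meets the tRNAs and the small subunit, 4 of 5 genes fell, with a median of -0.27. These were MRPL18, MRPL38, MRPL40 and MRPL48, and 2 of the 5 were called lower with the length trend removed. MRPL40 (-0.25, limma adjusted p = 0.0462) and MRPL48 (-0.26, limma adjusted p = 0.0397) lost their calls with single libraries left out, MRPL40 in all but the fit without p21 OFF replicate 3 (-0.29 to -0.17) and MRPL48 when p21 OFF replicate 1 or 2 was left out, and when p21 ON replicate 1 or 3 was (-0.26 to -0.22). MRPL18 had 1306, 1176 and 1149 normalized counts in p21 OFF and 838.2, 1025 and 908.4 in p21 ON libraries. Its log2 fold change was -0.39 (limma, standard error 0.08 and adjusted p = 0.00178), and -0.23 (adjusted p = 0.0118) with the length trend removed. MRPL38 had a log2 fold change of -0.29 (limma, adjusted p = 0.00638).

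Genes of proteins around the exit of the tunnel, where the new chain meets the inner membrane, were called lower in 2 of 9 cases, with a median of -0.18. These were MRPL24 and MRPL47, both at -0.36 (limma, adjusted p = 0.00218 and 0.00376). Of the 9, 1 was called lower with the length trend removed. MRPL47 stood at 1096, 925.7 and 879.6 normalized counts in p21 OFF and 727.6, 781 and 739.3 in p21 ON. MRPL17, another protein of the exit, had 884.1, 836.6 and 773.9 in p21 OFF and 819.6, 915.1 and 788.7 in p21 ON, and its groups overlapped (log2 fold change 0.02, limma adjusted p = 0.904). The difference between the exit group and the other groups was not tested.

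Other large subunit genes with large changes have varied roles. MRPL20, which in bacteria binds early in the assembly of the large subunit, had 1235, 1086 and 1036 normalized counts in p21 OFF and 867.3, 851.7 and 806.8 in p21 ON. Its log2 fold change was -0.41 (limma, standard error 0.07 and adjusted p = 0.000783) and the antisense gene MRPL20-AS1 overlaps its exons. MRPL35 fell by 0.36 on the log2 scale (limma, adjusted p = 0.00243), and this value was as large with the length trend removed (-0.37). Its canonical transcript has 3723 bases.

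MRPL54, MRPL50, MRPL51 and MRPL42 have no bacterial counterpart and belong to the proteins that mitochondria added to the ribosome. Their log2 fold changes were -0.41, -0.39, -0.34 and -0.31 (limma, adjusted p = 0.0114, 0.0205, 0.00437 and 0.0105). MRPL54 lost its call without p21 ON replicate 1 or 3 (-0.38 in both), MRPL42 without p21 ON replicate 3 (-0.26), and MRPL50 without the second p21 OFF library and without p21 ON replicates 2 and 3 (-0.37, -0.29 and -0.41). Over all members, those with a bacterial counterpart and those without had the same median, -0.25, with 22 of 45 and 16 of 30 called lower.

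**Figure D4:**
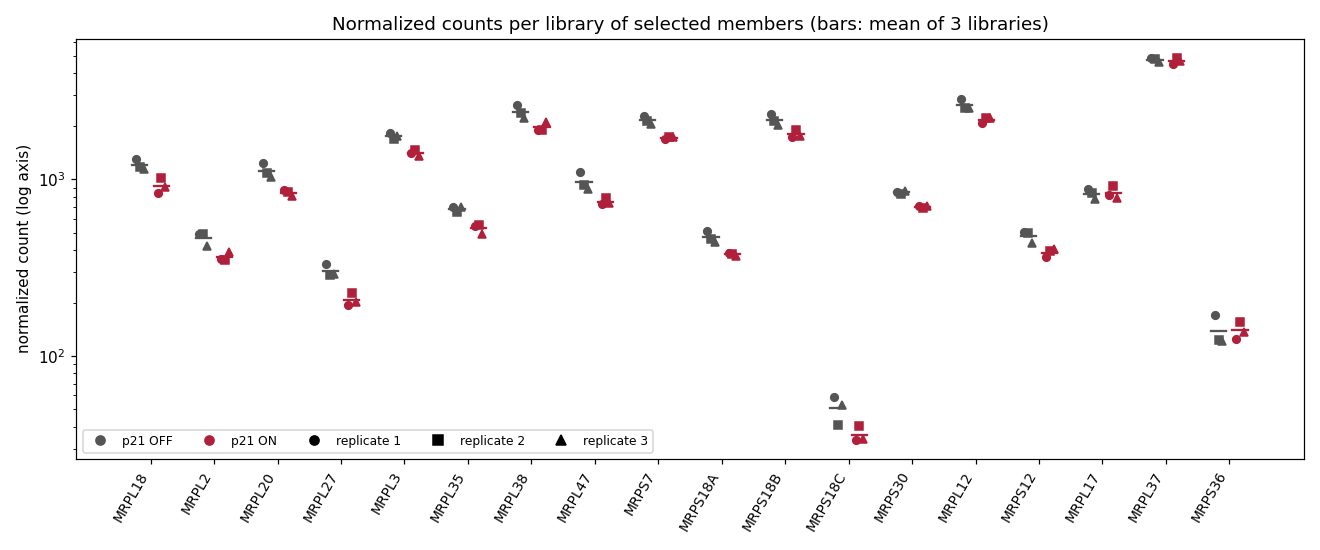
Normalized counts (y axis, log scale) of 18 mitochondrial ribosomal protein genes in each library, grey for p21 OFF and red for p21 ON, with a symbol for each replicate and a bar for the mean of 3 libraries. MRPL27 falls from between 289.8 and 332.8 to between 194.4 and 227.9, while MRPL17, MRPL37 and MRPS36 overlap between the groups.

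In the small subunit, 5 of 7 tested genes on the path of the mRNA and at the decoding site fell, with a median of -0.27. These were MRPS2, MRPS7, MRPS11, MRPS12 and MRPS28, and 2 of the 7 were called lower with the length trend removed. Without p21 ON replicate 1, MRPS2 and MRPS11 were not called (-0.21 and -0.19), and MRPS11 was also lost with the second p21 OFF or the third p21 ON library left out (-0.24 and -0.25). MRPS7, of the head near the exit of the mRNA, stood at 2276, 2137 and 2052 normalized counts in p21 OFF and 1683, 1733 and 1741 in p21 ON. Its log2 fold change was -0.32 (limma, standard error 0.06 and adjusted p = 0.00112), it was the 1 small subunit gene called in all 18 alternatives at the 0.05 threshold, and its exons overlap those of MIF4GD on the opposite strand. MRPS12, the protein of the decoding centre, had 502.4, 496.8 and 435.4 against 363.2, 392.3 and 402. Its log2 fold change of -0.31 (limma, adjusted p = 0.0137) lost its call without p21 OFF replicate 2 (-0.28), without p21 ON replicate 1 (-0.26) and with the length trend removed (-0.14, adjusted p = 0.18).

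MRPS28 had the largest called change of the small subunit, -0.45 (limma, standard error 0.11 and adjusted p = 0.0088). Its counts were 221, 172.6 and 204.7 in p21 OFF and 135, 148.7 and 152 in p21 ON. It was not called without p21 ON replicate 1 (-0.40, adjusted p = 0.0532) or with the length trend removed (-0.26, adjusted p = 0.0723). MRPS5, MRPS27 and MRPS36 lay at the other end, with log2 fold changes of -0.04, -0.04 and 0.01 (limma, adjusted p = 0.634, 0.719 and 0.952), and their groups overlapped.

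MRPS18A, MRPS18B and MRPS18C are paralogs of a single bacterial protein and take separate places in the ribosome. MRPS18A fell by 0.32 and MRPS18B by 0.28 on the log2 scale (limma, adjusted p = 0.00912 and 0.00661). MRPS18B lost its call without p21 ON replicate 1 (-0.25, adjusted p = 0.0525). MRPS18C had 59.03, 40.62 and 53.22 normalized counts in p21 OFF and 33.76, 40.21 and 34.21 in p21 ON, a log2 fold change of -0.48 with a standard error of 0.19 (limma, adjusted p = 0.0791), and it passed the threshold without p21 OFF replicate 2 (-0.63). The 3 genes share the CHR motif reported above.

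Several symbols do not match the place of the protein. MRPS30 and MRPS18A sit in the large subunit, and MRPS36 is now known as a part of the oxoglutarate dehydrogenase complex. MRPS30 had 846.5, 823.3 and 864.1 normalized counts in p21 OFF and 706.6, 693.3 and 708.9 in p21 ON, a log2 fold change of -0.26 (limma, adjusted p = 0.0083). MRPS36 had 172.1, 124.2 and 122.7 against 125.7, 157.2 and 136.8, so its p21 ON libraries lay among the p21 OFF libraries. Placed by structure, 27 of 49 large subunit genes (median -0.26) and 11 of 25 small subunit genes (median -0.23) were called lower.

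The contrast between the subunits lay within the spread of the libraries. The summed normalized counts of large subunit genes were 42218 ± 2716 (SD, n = 3) in p21 OFF and 36204 ± 1250 (SD, n = 3) in p21 ON, and those of small subunit genes 24121 ± 1272 and 21049 ± 882 (SD, n = 3 each). The ratio of large to small was 1.77, 1.73 and 1.74 in p21 OFF libraries and 1.72, 1.69 and 1.75 in p21 ON libraries, and the groups overlapped. On the log2 scale it was 0.81 ± 0.02 and 0.78 ± 0.03 (SD, n = 3 each), a difference of -0.02. The same difference was -0.03 with the genes placed by structure and -0.05 when medians replaced the sums.

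Levels between members were compared as normalized counts per kb of exonic length. In p21 OFF cells they ran from 3212 ± 82.4 per kb for MRPL37, 3144 ± 361 for MRPL33, 2670 ± 72.2 for MRPS34 and 2616 ± 192 for MRPL12 (SD, n = 3 each) down to 32.9 ± 6.07 for MRPS18C and 6.18 ± 2.81 for MRPS24 (SD, n = 3 each). MRPL37 and MRPL33 differed by less than their spread, and so did MRPS34 and MRPL12. The value per kb of MRPL42, 57.1 ± 5.84, rests on a canonical transcript of 15557 bases. Among the highest, MRPL37, MRPL33 and MRPS34 were not called, with log2 fold changes of -0.03, -0.20 and -0.11 (limma, adjusted p = 0.753, 0.0722 and 0.249), and MRPL33 passed the threshold without p21 OFF replicate 2 (-0.28). MRPL49 was not called either (-0.04, limma adjusted p = 0.674).

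MRPS24 was listed at 6.28, 3.12 and 2.96 normalized counts in p21 OFF and 3.49, 2.44 and 0.95 in p21 ON libraries. Its exons overlap those of the readthrough gene URGCP-MRPS24, so its reads may not all have been counted on it and its level is uncertain. Exons of 22 members overlap a gene on the opposite strand, and a strand setting of the counting is not given in the sources used here. Of these 22, 13 were called lower (median -0.26), and of the 45 members without any exon overlap, 21 were (median -0.22). Of 35 members with an annotated pseudogene 17 were called lower, and of 40 tested members without a pseudogene 21.

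Many of these genes start close to a neighbour on the opposite strand, and some pairs, such as MRPL51 and NCAPD2, overlap at their starts. A start of another protein-coding gene on the opposite strand lay within 1000 bases for 25 of the 76 members (32.9%), against 17.4% of 12315 tested coding genes. MRPL46 and MRPS11 share such a pair, with starts 63 bases apart and log2 fold changes of -0.27 and -0.23. Of the 22 tested neighbours that were no members, 7 were called lower and 1 higher, with a median of -0.08. Of all genes tested, 12.7% were called lower and 10.5% higher. These neighbours were looked up after the values had been seen.

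The neighbour of MRPL27 at a distance of 13 bases is EME1, a subunit of a DNA endonuclease of recombination. EME1 fell from 249, 241 and 235 normalized counts to 82.7, 91.4 and 79.8, a log2 fold change of -1.51 (limma, adjusted p = 8.3e-09). MRPL51 has the condensin gene NCAPD2 as its neighbour, which fell by 0.86 on the log2 scale (limma, adjusted p = 8.37e-09), while MRPL51 itself fell by 0.34. For MRPL49, whose neighbour at 6 bases is the cytosolic ribosomal protein gene FAU, the order was the other way round, with -0.04 for MRPL49 and -0.32 for FAU (limma, adjusted p = 0.00813). The call of FAU was lost without p21 ON replicate 1 (-0.29) and with the length trend removed (-0.08).

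Mitoribosomal proteins with other kinds of symbol gave similar values. Of 7 tested, 5 fell and 0 rose (12.7% and 10.5% of all genes), with a median of -0.25. They were DAP3, a GTP-binding protein of the small subunit, at -0.18, CHCHD1 at -0.46, AURKAIP1 at -0.32, ICT1, a peptidyl-tRNA hydrolase built into the large subunit, at -0.25 and GADD45GIP1 at -0.32 (limma, adjusted p = 0.0394, 0.00658, 0.00367, 0.0156 and 0.005). Without p21 ON replicate 1 the number called was 2, since DAP3, ICT1 and GADD45GIP1 (-0.18, -0.22 and -0.25) missed the threshold. With the length trend removed the median of the 7 was -0.12 and 3 were called by limma, and DAP3 (-0.11, adjusted p = 0.101), AURKAIP1 (-0.12, adjusted p = 0.101) and ICT1 (-0.08, adjusted p = 0.417) lost their calls. DAP3 also missed the threshold when p21 OFF replicate 1 or 2 was left out, and when p21 ON replicate 2 or 3 was (-0.19 to -0.14).

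Translation factors and assembly factors of the mitochondrial ribosome were called lower at shares near or under the 12.7% of all genes. Of 16 translation factors, 2 were lower (12.5%, median -0.11), TSFM, the exchange factor of the elongation factor Tu, at -0.21 and SLIRP, a protein that stabilizes mitochondrial mRNAs, at -0.63 (limma, adjusted p = 0.0462 and 0.00127). With the length trend removed, the lowest log2 fold change of the 16 was -0.35. The call of TSFM was lost without any of p21 OFF replicates 1, 2 and 3 or p21 ON replicates 1 and 2 (-0.23 to -0.17) and with the length trend removed (-0.14, adjusted p = 0.118), and that of ERAL1 without p21 OFF replicate 2 (-0.23). Of 23 assembly factors, 2 were lower (8.70%, median -0.07), ERAL1, an RNA chaperone of the small subunit, at -0.27 and MPV17L2 at -0.51 (limma, adjusted p = 0.0118 and 4.89e-05). Of 10 genes of mitochondrial DNA maintenance and transcription, 3 were lower, TFAM, which packages mitochondrial DNA, at -0.28, SSBP1 at -0.26 and C20orf72, the nuclease MGME1, at -0.58 (limma, adjusted p = 0.0251, 0.0156 and 1.22e-05). SSBP1 was not called without p21 ON replicate 1 (-0.21) or with the length trend removed (-0.05, limma adjusted p = 0.585), and TFAM was not called without any library except p21 OFF replicate 3 (-0.30 to -0.22).

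Among 8 tested regulators of nuclear genes for mitochondria, 2 fell and 1 rose, against 12.7% lower and 10.5% higher among all genes. NRF1, whose motif is shown in MRPL17, stood at 398.1, 421.8 and 380.7 normalized counts in p21 OFF and 215.4, 286.3 and 235.7 in p21 ON (log2 fold change -0.71, limma adjusted p = 7.19e-05). GABPB1, a subunit of the ETS factor GABP, stood at 432, 403.1 and 384.4 against 278.2, 294.9 and 275.6 (-0.52, limma adjusted p = 0.000265). PPARGC1B, a coactivator of mitochondrial genes, rose from 270, 308.6 and 303.1 to 434.2, 371.6 and 402.9 (0.45, limma adjusted p = 0.00163). The groups of these 3 genes did not overlap, and with the length trend removed the log2 fold changes were -0.72, -0.56 and 0.29. PPARGC1A did not pass the filter on low values.

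Genes of the mitochondrial stress response moved in both directions, 4 lower and 4 higher of 16 tested. The same fit called 12.7% of all genes lower and 10.5% higher, and the difference from these shares was not tested. ATF4, the transcription factor of the integrated stress response, fell by 0.34, and the mitochondrial chaperones HSPD1, HSPA9 and HSPE1 fell by 0.30, 0.21 and 0.88 on the log2 scale (limma, adjusted p = 0.00171, 0.00572, 0.0202 and 0.000965). HSPE1 has processed pseudogenes, so its value is uncertain. With the length trend removed, the lowest log2 fold change of the 16 genes was -0.65. CHAC1, TRIB3, ASNS and DDIT3, known targets of the stress response, rose by 0.59, 0.38, 0.37 and 0.25 (limma, adjusted p = 0.00284, 0.00751, 0.00319 and 0.0494). Without p21 ON replicate 3 the number called lower was 2, since HSPD1 and HSPA9 (-0.23 and -0.17) missed the threshold, and HSPA9 also missed it without p21 ON replicate 1 (-0.21). DDIT3 missed it without any of the libraries except p21 OFF replicate 1 (0.21 to 0.27).

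Other groups of short housekeeping genes had similar counts. Of 76 nuclear-encoded genes of the respiratory chain, 45 were lower and 0 higher (median -0.25), and of 77 tested cytosolic ribosomal protein genes, 44 were lower and 0 higher (median -0.24). The shares over all genes were 12.7% lower and 10.5% higher. Their median exonic lengths were 763 and 785 bases. With the length trend removed the numbers were 14 lower and 1 higher (median -0.08) for the respiratory chain and 15 lower and 1 higher (median -0.08) for the cytosolic ribosome, beside 17 and 0 (median -0.13) for the mitochondrial ribosomal protein genes. Whether these groups differ was not tested.

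**Figure D5:**
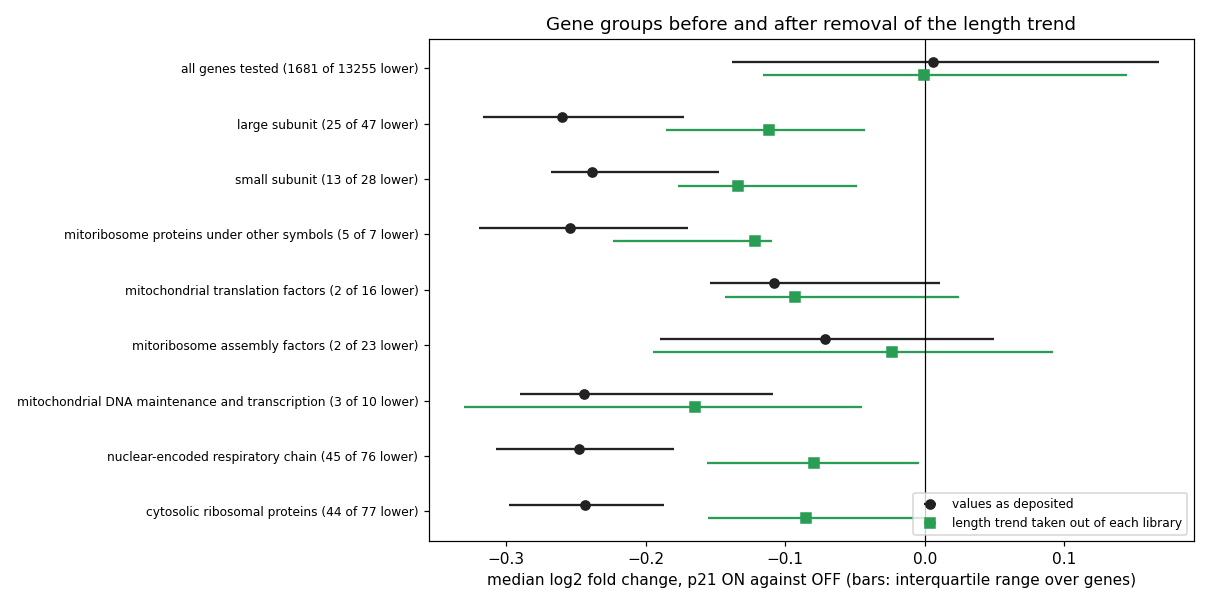
Median log2 fold change of p21 ON against OFF (x axis) with the interquartile range over genes, for gene groups (y axis, with the number called lower of those tested), black for the deposited values and green after the length trend was removed from each library. Both subunits, the respiratory chain and the cytosolic ribosome lie near -0.25 in black, and between -0.13 and -0.08 in green.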

How the data were processed

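RNA was sequenced from 6 libraries of SaOS-2 cells, 3 p21 OFF and 3 p21 ON. The authors made the libraries with a stranded mRNA kit and read them single-end in 1 lane, used STAR for alignment to hg19 and HTSeq for gene counts, and scaled each library by its DESeq2 size factor. The deposited values are therefore a signal, the normalized count of a gene in a library. Versions, and whether HTSeq used the strand, are not given in the sources used here. The table was assigned to samples in full, with 0 value columns unused.

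In every library 100% of the values came out as whole reads, within 0.01 of a read, after division by the step that 1 read is worth. Genes were tested with limma 3.58.1 (eBayes with a trend) in R 4.3.3 on log2(normalized count + 1), for genes whose mean reached 10, and called at a Benjamini-Hochberg adjusted p under 0.05. Fold changes on this scale understate those of low genes. The quasi-likelihood test of edgeR 4.0.16 on the recovered reads called 1647 genes lower and 1401 higher, and DESeq2 1.42.0 called 1502 and 1073. Further alternatives were other scalings and pseudocounts (0.1 and 10), no filter on low values, a threshold of 0.01, the replicate number as a block, each library left out, and a trend with exonic length or GC content (lowess, span 0.3) taken out of each library. Only the main limma fit was also run on simulated data, and the alternatives were not. Replicates differed by more than sampling noise (chi-square per gene 2.71 to 9.26), and all 6 libraries were kept.

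Exonic lengths and overlaps are those of canonical transcripts in GENCODE release 44 on GRCh37, the build of hg19, to which 21031 rows and all 76 members were matched by symbol or older symbol. The genes named were the 12 members with the largest called changes, the 3 highest and 3 lowest fold changes and the 2 highest and 2 lowest levels per kb in each subunit, MRPS18A, MRPS18B, MRPS18C, MRPS30, MRPL12 and MRPS12, members under the filter, and up to 6 called genes of each list by adjusted p. Others were added where a sentence counts them, after their values were seen. The members and lists were chosen with earlier results of these data known, and the fit that combined length with a left-out library was chosen after seeing the data. Mitochondrially encoded mRNAs were not analysed here.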

Additional observations from a re-analysis of the deposited data

How the results depend on the processing

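The log2 fold changes of the mitochondrial ribosomal protein genes kept their direction in every alternative run for the named members that passed the threshold, and their counts depended on the library set, the scaling and the length trend. At an adjusted p under 0.01 from limma, 17 members were lower (12 large, 5 small subunit, against 6.65% of all genes), 3 mitoribosome proteins under other symbols, 1 translation factor, 1 assembly factor, 1 gene of mitochondrial DNA, 20 of the respiratory chain and 12 of the cytosolic ribosome. Scaling by library size alone gave 24 members (7 small subunit), 1 translation factor and 29 respiratory chain genes. With the length trend removed, 17 members were lower (13 large, median -0.11, and 4 small, median -0.13, with a median of -0.13 over all), 3 under other symbols, 14 of the respiratory chain and 15 of the cytosolic ribosome, with 1 assembly factor, 1 respiratory chain gene and 1 cytosolic ribosomal gene higher. With p21 OFF replicate 1 left out as well, 18 were lower (12 large, median -0.10, and 6 small, median -0.0911, with -0.0916 over all), 2 under other symbols, 12 of the respiratory chain and 7 of the cytosolic ribosome, with 1 assembly factor and 1 respiratory chain gene higher. With both of these changes, the shares lower were 24.0% of members, 16.0% of respiratory chain and 9.09% of cytosolic ribosomal protein genes. The share over all genes was 12.1%. Removing the GC trend gave 4 assembly factors lower. DESeq2 and the fit without a filter each gave 1 translation factor. The log2 ratio of large to small subunit level differed by -0.0533 with the median over members. The cause of these changes was not tested.

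With single libraries left out, the members called lower ranged from 17 to 43 (large subunit 13 to 28, small subunit 3 to 15) and their median from -0.28 to -0.18 (large -0.31 to -0.18, small -0.26 to -0.17), and 0 were higher. The ranges were 2 to 5 for other symbols, 1 to 2 for translation factors, 1 to 4 for assembly factors (0 to 1 higher), 1 to 3 for mitochondrial DNA, 2 to 4 lower and 3 to 4 higher for the stress response, 16 to 53 for the respiratory chain and 12 to 51 for the cytosolic ribosome. The difference in the ratio ranged from -0.04 to -0.01. Same-numbered libraries did not deviate together (correlations of -0.06, -0.02 and -0.05), and the main fit used no pairing. With 3 libraries a group, such correlations cannot show whether the numbers pair samples. The replicate block gave 34 members lower, all among the 38, and 1 translation factor in place of 2.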
